A study of Homo sapiens with 12 samples.

Results

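The combined knockdown of UBE4B and LSD1 was set against a nontargeting shRNA in HEK293T cells, a human embryonic kidney line that carries the SV40 large T antigen. The 2 groups took 6 of the 12 arrays of the series, and every array measured the same 18417 genes, so all genes with 1 symbol were members and none was chosen by its value. The shUBE4B+shLSD1 group (3 arrays) received plasmids encoding shRNAs against both genes, the shUBE4B and shLSD1 groups (3 arrays each) received plasmids against 1 of them, and the shCTRL group (3 arrays) received the nontargeting plasmid. All cells were transfected with Lipofectamine and lysed 78 h later. The characteristics give the line as HEK293T, while the growth protocol and the source names give HEK293. The study's text places a misfolding mutant of SOD1 in the cells of all groups, and the labels do not name it. The samples of a group are called biological replicates, and nothing states whether they came from separate passages of the line, so p-values measure the spread between these samples. The labels do not say which shRNA sequences the plasmids of these arrays carried. The methods list 4 commercial target sequences of 29 bases and 1 of the study's own of 21 bases for each gene. The commercial ones are shown here as sequences that these plasmids may have carried, and their effects on other transcripts were not measured. Each is read 5′ to 3′.
UBE4B, plasmid 69: catttcaccattgaaacctgcaaagagac
UBE4B, plasmid 70: agagtcttggtctcaatgtccacaacatg
UBE4B, plasmid 71: taacgcctttcaccattaagaggaaagcg
UBE4B, plasmid 72: gcagtcagccagcttctgagcaacatccg
LSD1, plasmid 45: agccacctgacagtaaggaatggctactc
LSD1, plasmid 46: gatactgtgcttgtccaccgagttcacag
LSD1, plasmid 47: ggatttggcaaccttaacaaggtggtgtt
LSD1, plasmid 48: tcaaagatgagcagattgaacattggaag

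UBE4B is an E3 and E4 ubiquitin ligase that lengthens ubiquitin chains on other proteins and works with the p97 segregase, which pulls ubiquitinated proteins out of complexes and membranes. LSD1, encoded by KDM1A, is a flavin-dependent demethylase that removes methyl groups from lysine 4 of histone H3, mostly as a subunit of the CoREST complex. CoREST is recruited by REST, a zinc finger protein that keeps neuronal genes silent outside the nervous system. HEK293 cells are a relevant setting for that pathway, since the line transcribes a number of neuronal genes next to those of embryonic kidney.

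The signal of each gene was a log2 value after RMA, which the authors ran on Affymetrix Human Gene arrays of 1 colour. Levels of different genes were not compared, since each probe set has its own brightness. As a scale for the values below, the control mean of a gene had its 25th, 50th and 75th percentile over all genes at log2 signals of 6.14, 7.70 and 9.21. Array medians lay between 7.00 and 7.06, and 2 arrays of a group correlated at 0.9932 to 0.9978 over genes. RMA sets all arrays to nearly 1 distribution, so a gene that fell in some cells cannot be told apart from fewer cells of a type or less RNA per cell. Both targets were low only where their shRNAs were given. UBE4B read 8.75, 9.11 and 8.94 on the double knockdown arrays and 10.39, 10.38 and 10.28 on the control arrays, and KDM1A read 9.58, 9.89 and 9.87 on the double knockdown arrays and 10.91, 10.83 and 10.96 on the control arrays. For both genes every double knockdown array lay below every control array. Of 12 genes known from HEK293 cells, 11 were measured, with mean log2 signals of 7.09 to 11.19 in the double knockdown and 7.16 to 11.27 in the control. LIN28B was higher and INA was lower in the double knockdown, and the other 9 did not pass the test. Markers of leukocytes (4 measured) had mean log2 signals of 4.46 to 6.57 in the double knockdown and 4.47 to 6.50 in the control, with none called, and hepatocyte markers (5 measured) lay between 4.44 and 6.06 in the double knockdown and between 4.38 and 6.26 in the control. Endothelial markers (5 measured) lay between 5.33 and 7.09 in the double knockdown and between 5.40 and 7.03 in the control, and fibroblast markers (6 measured) between 4.63 and 8.10 in the double knockdown and between 4.58 and 8.15 in the control, with none called. The 7 colon markers, checked because the study also used a colon line, lay between 5.51 and 9.32 in the double knockdown and between 5.52 and 9.28 in the control. CDX2 was the brightest of them, and EPCAM fell (log2 change -0.58) while the other 6, CDX2 included, did not pass. The part of such markers in the results was not tested.

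Knockdown of both genes was followed by many small changes in genes of many functions. Limma called 1393 of the 18417 genes, which is 7.56% of those tested, at a Benjamini-Hochberg adjusted p under 0.05. Of the genes tested 3.74% were higher (688 genes) and 3.83% were lower (705 genes) in the double knockdown. Only 139 of the called genes changed by more than 1.5-fold, 72 of them higher and 67 lower. The double knockdown and control arrays did not overlap in 1374 of the called genes and overlapped in 19, and over all genes tested 4036 (21.9%) did not overlap. The study's list of p53 targets held 89 of the called genes. That list holds targets that the study found changed between the same groups on these arrays. Calls among its genes were therefore built into the list, and their count does not test a role of p53. The other 1304 called genes are the main subject of what follows. Calls were more frequent among bright genes. When genes were divided by mean signal into 5 groups of equal size, limma called 0.76%, 3.01%, 8.23%, 13.3% and 12.6% of them, from the dimmest to the brightest group. Leaving out 1 array gave between 862 calls (without shUBE4B+shLSD1 replicate 2) and 1549 calls (without shCTRL replicate 2), and fitting the 2 groups alone left 420. The total was 902 without shUBE4B+shLSD1 replicate 1. Higher genes numbered 417 and 429 without shUBE4B+shLSD1 replicate 2 and 3, and lower genes 413 and 445 without shUBE4B+shLSD1 replicate 1 and 2 and 455 without shCTRL replicate 1.

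**Figure D1:**
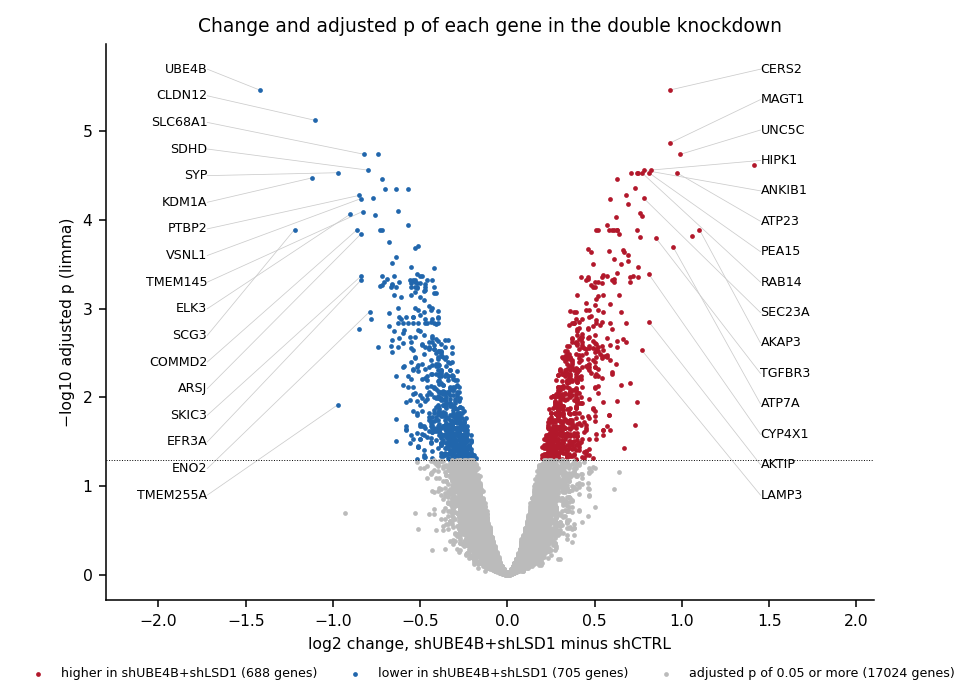
Log2 change of each of the 18417 genes (shUBE4B+shLSD1 minus shCTRL, horizontal axis) against −log10 of the adjusted p from limma (vertical axis), with red points for the 688 higher, blue points for the 705 lower and grey points for all other genes. The dotted line marks an adjusted p of 0.05, and names are given for both targets and for genes named as the highest and lowest changes, which reach at least 0.77 or -0.79 and leave out the p53 targets of the study.

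The 15 genes that rose most and the 15 that fell most, p53 targets left aside, were chosen among called genes whose groups did not overlap, so the gap between their groups is part of the choice. AKAP3, an anchor that binds protein kinase A to sperm fibrous sheath structures, had log2 signals of 7.29, 7.21 and 7.66 in the double knockdown and 6.21, 6.41 and 6.25 in the control (log2 change 1.10, SE 0.12, limma adjusted p = 0.000128). Replicate 3 was the highest of its double knockdown arrays. UNC5C, a receptor for the guidance cue netrin-1, read 8.36, 8.40 and 8.20 in the double knockdown and 7.32, 7.46 and 7.22 in the control (log2 change 0.99). TGFBR3, or betaglycan, which presents TGF-beta and inhibin to their signalling receptors, had log2 signals of 9.08, 9.30 and 9.25 in the double knockdown and 8.19, 8.53 and 8.36 in the control (log2 change 0.85, SE 0.09, limma adjusted p = 0.000159). The control arrays of TGFBR3 were more spread than its double knockdown arrays.

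ATP7A, MAGT1, SEC23A, RAB14 and CERS2 were also among the 15 highest. ATP7A pumps copper into the Golgi lumen and out of the cell. Its log2 signals were 9.17, 9.25 and 9.41 in the double knockdown and 8.22, 8.21 and 8.57 in the control, a 1.93-fold rise (limma adjusted p = 0.000202). MAGT1, a membrane protein tied to magnesium uptake and to N-glycosylation, read 10.00, 9.98 and 10.09 in the double knockdown and 9.12, 9.02 and 9.15 in the control (log2 change 0.93, SE 0.07, limma adjusted p = 1.36e-05). A second and dimmer transcript cluster of MAGT1 had a smaller log2 change of 0.26, so the size of the MAGT1 change depends on which probes are read. SEC23A, an inner coat protein of COPII vesicles that leave the endoplasmic reticulum, read 11.18, 11.21 and 11.31 in the double knockdown and 10.43, 10.35 and 10.55 in the control (log2 change 0.78, limma adjusted p = 5.66e-05). RAB14, a GTPase of the route between Golgi and endosomes, read 11.45, 11.38 and 11.48 in the double knockdown and 10.71, 10.54 and 10.76 in the control. SEC23A and RAB14 were bright genes in both groups. CERS2, the synthase of very long chain ceramides, had nearly identical double knockdown arrays (11.04, 11.02 and 11.05) against control arrays of 10.06, 10.15 and 10.12.

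The remaining genes among the 15 highest had varied roles. ATP23, whose yeast relative is a mitochondrial protease that matures a subunit of the ATP synthase, had log2 signals of 9.07, 9.09 and 9.13 in the double knockdown and 8.19, 7.96 and 8.23 in the control (log2 change 0.97, limma adjusted p = 2.93e-05). HIPK1, a nuclear kinase that binds homeodomain proteins, read 10.12, 10.11 and 10.11 in the double knockdown and 9.39, 9.24 and 9.26 in the control. PEA15, a death effector domain protein that holds ERK in the cytoplasm, rose by 0.81 on the log2 scale. The same change was fitted for AKTIP, a noncatalytic relative of E2 ubiquitin-conjugating enzymes, and for CYP4X1, a cytochrome P450. ANKIB1, a ring-between-ring ubiquitin ligase, rose by 0.78 and the lysosomal membrane protein LAMP3 by 0.77. Of the 15 genes, LAMP3 had the largest adjusted p in limma (0.00294), with log2 signals of 7.32, 7.11 and 7.52 in the double knockdown and 6.59, 6.47 and 6.56 in the control. All 15 kept their calls when any 1 of the 12 arrays was left out, which their choice by size and gap favoured. In the t-test that the study's methods name, after the same adjustment, only CERS2, HIPK1 and MAGT1 of the 15 kept theirs.

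**Figure D2:**
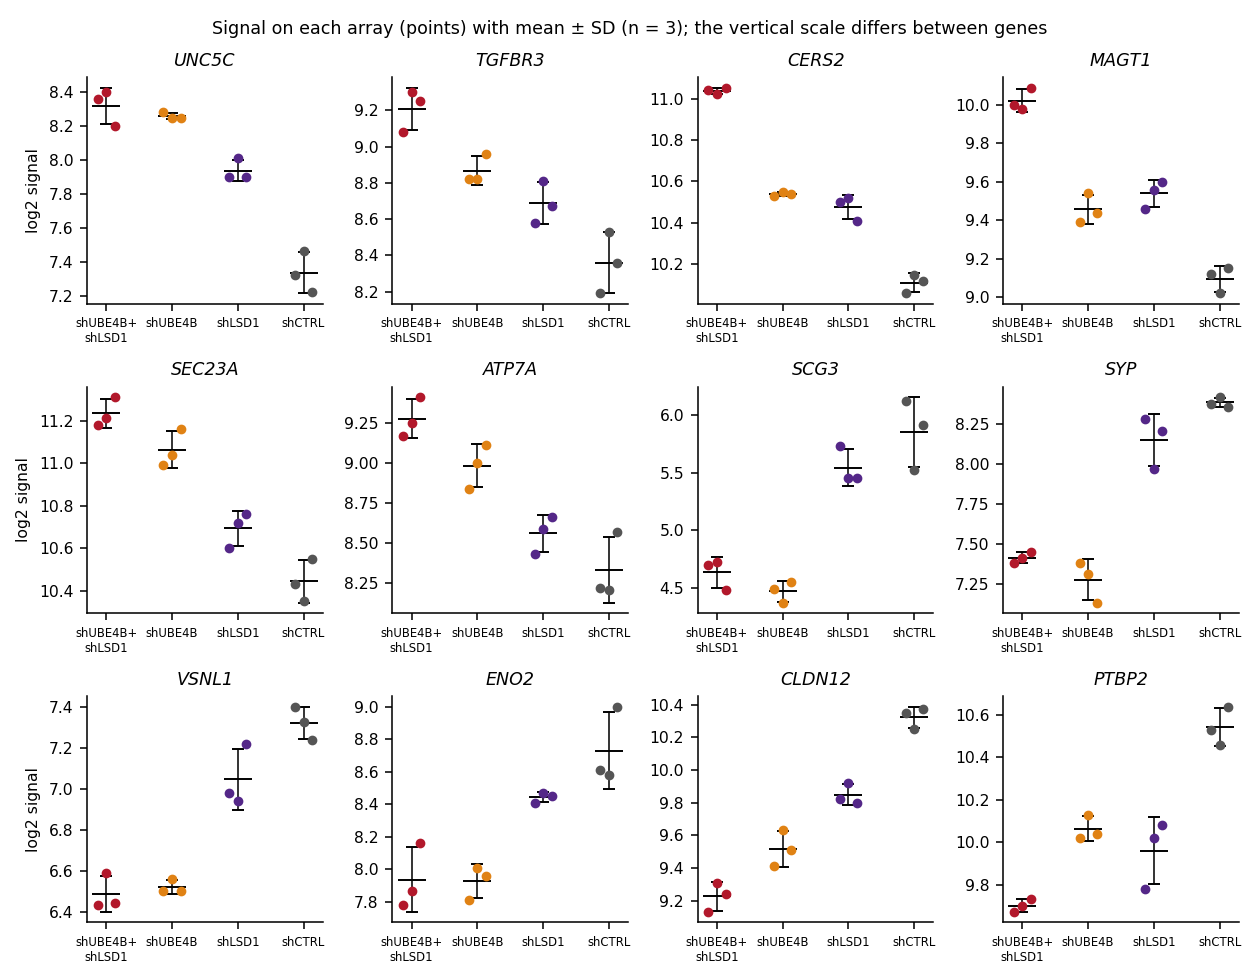
Log2 signal on each array (points) of 12 genes in the 4 groups, with the mean and SD of 3 arrays (lines), and a vertical scale that differs between genes. UNC5C, TGFBR3, CERS2, MAGT1, SEC23A and ATP7A lie higher and SCG3, SYP, VSNL1, ENO2, CLDN12 and PTBP2 lie lower on all 3 shUBE4B+shLSD1 arrays than on all 3 shCTRL arrays, which the choice of these genes required.

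SCG3, SYP, VSNL1, ENO2 and PTBP2, which neurons or endocrine cells use, were among the 15 genes that fell most. SCG3, which sorts cargo into secretory granules, had log2 signals of 4.70, 4.72 and 4.48 in the double knockdown and 6.12, 5.52 and 5.91 in the control (log2 change -1.22, SE 0.13, limma adjusted p = 0.000128). The signals of SCG3 lay below the 25th percentile of control levels in both groups, and its double knockdown mean of 4.63 lay within the range of the leukocyte markers, so the size of its change is uncertain. SYP, the vesicle membrane protein synaptophysin, read 7.38, 7.41 and 7.45 in the double knockdown and 8.38, 8.42 and 8.36 in the control. The arrays of SYP differed little within each group. VSNL1, a neuronal calcium sensor, had log2 signals of 6.43, 6.59 and 6.44 in the double knockdown and 7.40, 7.33 and 7.24 in the control (log2 change -0.84, SE 0.08, limma adjusted p = 5.74e-05). ENO2, the neuronal form of the glycolytic enzyme enolase, read 7.78, 7.87 and 8.16 in the double knockdown and 8.61, 8.58 and 9.00 in the control (log2 change -0.79, limma adjusted p = 0.00108). PTBP2, a splicing repressor of developing neurons, read 9.67, 9.70 and 9.73 in the double knockdown and 10.53, 10.46 and 10.64 in the control (log2 change -0.85, limma adjusted p = 5.28e-05). Replicate 3 of ENO2 was its highest array in both groups.

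The other genes among the 15 lowest had varied roles. CLDN12, a claudin of the cell border, read 9.13, 9.31 and 9.24 in the double knockdown and 10.35, 10.25 and 10.37 in the control (log2 change -1.10). ELK3, an ETS factor that represses serum response genes until it is phosphorylated, read 7.83, 8.16 and 8.13 in the double knockdown and 8.82, 8.92 and 9.08 in the control (log2 change -0.90, limma adjusted p = 8.57e-05). COMMD2, of a family that regulates endosomal sorting and NF-kB, fell by 0.86 on the log2 scale. EFR3A, which anchors a phosphatidylinositol kinase at the plasma membrane, fell by 0.84, as did ARSJ, an arylsulfatase, and SKIC3, a subunit of the SKI complex that feeds RNA to the exosome. SDHD, the membrane anchor of succinate dehydrogenase, read 10.58, 10.62 and 10.48 in the double knockdown and 11.41, 11.38 and 11.30 in the control, and its second transcript cluster had a log2 change of -0.44 instead of -0.80. TMEM145 fell by 0.83 and SLC68A1 by 0.82. TMEM255A, a multipass membrane protein, was the least certain of the 15, with log2 signals of 7.30, 7.55 and 7.83 in the double knockdown and 8.25, 8.29 and 9.05 in the control. Its adjusted p in limma was 0.012 on all arrays and 0.0533 without shUBE4B+shLSD1 replicate 1, while the other 14 kept their calls when any 1 array was left out. In the methods' t-test only SYP, PTBP2, CLDN12, SDHD and SLC68A1 of the 15 kept theirs.

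Genes were next grouped in 51 lists by function, which held 1970 measured genes and 223 of the called ones. Some genes stand in more than 1 list. A count is given beside the shares of 3.74% higher and 3.83% lower over all genes and the median log2 change of -0.01 over all genes, and no test of a list as a whole was made. Lists were not matched for brightness. Calls reached 0.76% in the dimmest and 12.6% in the brightest of the 5 groups by signal, so these shares are a low reference for lists of bright genes. Arrays are named where leaving 1 out moved a count of 3 or more by over 1.5 times, and counts of 1 or 2 can move that far with the loss or gain of 1 gene. List medians ran from -0.26 to 0.08. In 9 lists no member was called higher, in 9 lists none was called lower, and in 1 list, mitosis, neither occurred.

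Cholesterol synthesis and uptake was the list with the lowest median. Cells make cholesterol from acetyl-CoA through the mevalonate pathway, and the transcription factor SREBP2, encoded by SREBF2, turns on these genes when membranes run short of sterol. Of 19 measured members 10 were called lower and 0 higher, or 52.6% lower, with a median log2 change of -0.26. A negative change was fitted for 18 members, and the exception was the sterol dehydrogenase NSDHL at 0.08 (limma adjusted p = 0.533). The median log2 change of the same genes was -0.19 with UBE4B shRNAs alone and -0.08 with LSD1 shRNAs alone, both against the same 3 control arrays. Of the 10 called genes 5 (HMGCS1, STARD4, FDPS, MVD and CYP51A1) are also on the p53 target list of the study, which was drawn from these arrays.

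The fall reached the regulators of the pathway as well as its enzymes. INSIG1, which holds SREBP in the endoplasmic reticulum when sterol is plentiful, had log2 signals of 9.34, 9.52 and 9.55 in the double knockdown and 9.94, 10.06 and 10.05 in the control (log2 change -0.55, SE 0.07, limma adjusted p = 0.000562). SREBF2 itself read 9.40, 9.55 and 9.56 in the double knockdown and 9.91, 9.77 and 9.96 in the control (log2 change -0.38, limma adjusted p = 0.00517). In both genes replicate 1 was the lowest double knockdown array, and no array of either group entered the range of the other. Among the enzymes, HMGCS1, which makes HMG-CoA, read 9.94, 10.17 and 10.10 in the double knockdown and 10.61, 10.45 and 10.61 in the control (log2 change -0.48, SE 0.08, limma adjusted p = 0.002). IDI1, which isomerizes isopentenyl diphosphate, was the most changed and the most variable, with log2 signals of 7.84, 8.30 and 8.10 in the double knockdown and 8.91, 8.35 and 8.91 in the control. In IDI1, MSMO1 and HMGCS1 the lowest control array was shCTRL replicate 2. FDPS, which condenses isoprenoids to farnesyl diphosphate, fell by 0.37, the sterol methyl oxidase MSMO1 by 0.36, MVD by 0.30, ACAT2 by 0.27 and the lanosterol demethylase CYP51A1 by 0.26. The sterol carrier STARD4 fell by 0.45. SQLE, the squalene epoxidase, had a log2 change of -0.11 and DHCR7 one of -0.15, neither past the test. The count of lower genes in this list was 5 without shUBE4B+shLSD1 replicate 1 or 2 and without shCTRL replicate 1 or 3. It was 0 in the methods' t-test, which called 48 of all genes tested. The call of IDI1 ended without shUBE4B+shLSD1 replicate 1 or shCTRL replicate 1 or 3 (limma adjusted p up to 0.0739), and that of STARD4 without shUBE4B+shLSD1 replicate 1 or 2 or shCTRL replicate 3 (up to 0.072).

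SREBP2 is known to act beside NF-Y, a factor that binds CCAAT boxes, at the promoters of this pathway. The 250 bases before the annotated start of 4 members that fell are shown from RefSeq on GRCh38.p14, read 5′ to 3′ on the strand of the gene. They show where these letters lie in examples that hold them. The 4 were not drawn without regard to the motif, so they do not show how often genes that fell hold it. HMGCS1 lies at chr5:43313413-43313662 (minus strand), INSIG1 at chr7:155297628-155297877 (plus strand), MSMO1 at chr4:165327419-165327668 (plus strand) and SREBF2 at chr22:41832855-41833104 (plus strand). Capitals mark CCAAT or its complement ATTGG and, in SREBF2, also TCACCCC, part of a sterol regulatory element.
HMGCS1: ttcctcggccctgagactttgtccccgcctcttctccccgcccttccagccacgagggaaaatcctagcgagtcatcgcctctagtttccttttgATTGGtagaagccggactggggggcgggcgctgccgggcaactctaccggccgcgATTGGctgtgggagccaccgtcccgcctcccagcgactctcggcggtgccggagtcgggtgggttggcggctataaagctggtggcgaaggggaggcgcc
INSIG1: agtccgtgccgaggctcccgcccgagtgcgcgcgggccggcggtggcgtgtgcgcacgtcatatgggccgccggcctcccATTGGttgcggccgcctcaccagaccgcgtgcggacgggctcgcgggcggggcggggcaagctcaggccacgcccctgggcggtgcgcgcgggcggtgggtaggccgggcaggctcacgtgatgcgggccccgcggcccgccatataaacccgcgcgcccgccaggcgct
MSMO1: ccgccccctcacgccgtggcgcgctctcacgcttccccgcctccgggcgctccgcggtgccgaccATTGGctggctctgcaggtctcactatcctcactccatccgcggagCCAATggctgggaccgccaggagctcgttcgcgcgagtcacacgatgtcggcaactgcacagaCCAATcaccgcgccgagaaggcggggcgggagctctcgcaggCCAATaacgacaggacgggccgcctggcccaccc
SREBF2: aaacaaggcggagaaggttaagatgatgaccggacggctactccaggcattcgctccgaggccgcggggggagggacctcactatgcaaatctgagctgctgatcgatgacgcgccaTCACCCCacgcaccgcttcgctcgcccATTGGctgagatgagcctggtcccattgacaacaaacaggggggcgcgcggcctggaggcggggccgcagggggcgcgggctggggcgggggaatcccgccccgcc

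The motif counts used 250 bases before and 50 after the start of each gene, on both strands. Such a window was at hand for 14239 of the 18417 genes. CCAAT was present in 14 of the 17 windows of the cholesterol list (82.4%), against 36.3% of all windows, 38.4% of those of the genes called higher and 42.1% of those of the genes called lower. Of the 9 windows of members called lower 7 held it (77.8%), as did 7 of the other 8. The motif was not particular to this list. In the list of ATF4 stress response genes, described below, it was in 15 of 28 windows (53.6%) and in 5 of the 6 of members called lower (83.3%). In the list of neuronal genes repressed by REST it was in 12 of 31 windows (38.7%). In the printed stretches, ATTGG began 155 and 100 bases before the start of HMGCS1 and 170 bases before that of INSIG1. MSMO1 had 1 ATTGG at 185 bases and CCAAT at 139, 76 and 34 bases before its start. SREBF2 had TCACCCC at 133 and ATTGG at 106 bases before its start. TCACCCC, searched after the values of this list were known, was in the windows of SREBF2 and MVK only, 11.8% of the list against 5.46% of all windows. Over all called genes the other motifs were scarce. The E-box CACGTG was in 10% of windows of higher genes, 13% of windows of lower genes and 8.88% of all windows, and the cAMP response element TGACGTC was in 5.94%, 6.69% and 4.59% of them in the same order. The TATA box TATAAA was in 4.24% of windows of higher genes, 6.69% of windows of lower genes and 9% of all windows. A match describes letters in a window and not a bound site.

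**Figure D3:**
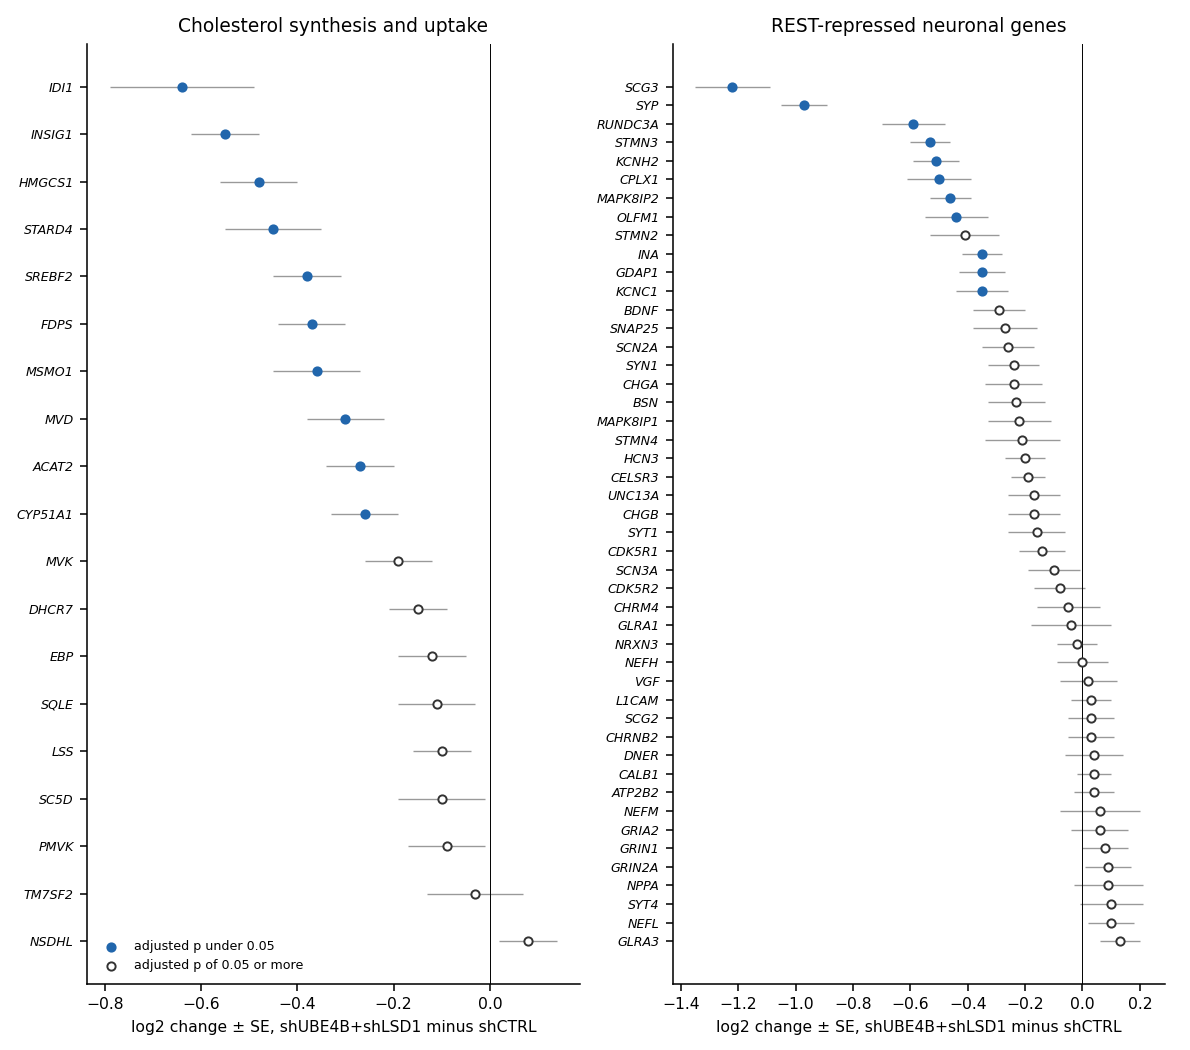
Log2 change (shUBE4B+shLSD1 minus shCTRL) with its standard error for each measured gene of the cholesterol list (left, 19 genes) and of the list of neuronal genes repressed by REST (right, 47 genes), filled where the adjusted p from limma was under 0.05. In the left panel 18 of 19 points lie below 0, from IDI1 at -0.64 to NSDHL at 0.08, and in the right panel 31 of 47, led by SCG3 and SYP.

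Neuronal genes that REST represses were lower in part, and REST was higher. REST read 9.58, 9.42 and 9.53 in the double knockdown and 9.15, 9.19 and 9.22 in the control (log2 change 0.33, SE 0.07, limma adjusted p = 0.00882). It was the only called gene besides KDM1A among 33 measured members of CoREST, NuRD and other LSD1 complexes. Of 47 measured REST targets 11 were called lower and 0 higher (23.4% lower), with a median log2 change of -0.17. The median was -0.19 with UBE4B shRNAs alone and -0.02 with LSD1 shRNAs alone against the same control arrays. SCG3 and SYP, given above, led the list. RUNDC3A, a partner of the GTPase Rap2, had log2 signals of 6.43, 6.14 and 6.48 in the double knockdown and 6.99, 6.76 and 7.07 in the control (log2 change -0.59). STMN3, a stathmin that destabilizes microtubules, read 9.07, 9.02 and 8.93 in the double knockdown and 9.54, 9.61 and 9.46 in the control (log2 change -0.53, limma adjusted p = 0.000478). In both genes the groups did not overlap. The potassium channels KCNH2 and KCNC1 fell by 0.51 and 0.35 on the log2 scale, complexin CPLX1, which clamps vesicle fusion, by 0.50, the JNK scaffold MAPK8IP2 by 0.46, and OLFM1 by 0.44. The intermediate filament INA and the mitochondrial fission factor GDAP1 fell by 0.35 each. The other 36 members did not pass, among them NEFL and NEFM, and 16 of the 47 had a positive change. Without shUBE4B+shLSD1 replicate 3 limma called 7 members lower, and the methods' t-test called 1. The call of CPLX1 ended without shUBE4B+shLSD1 replicate 3 (limma adjusted p = 0.0537), that of INA without shUBE4B+shLSD1 replicate 2 or shCTRL replicate 1 (up to 0.0577), and that of KCNC1 without any of 8 arrays (up to 0.142). TCAGCAC, a stretch of the REST site, was in 8 of 31 windows of the list (25.8%) and in 4.23% of all windows. Of the 8 windows of members called lower it was in 1, that of SCG3.

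In the list of neuronal cytoskeleton (24 measured) 5 genes were lower and 1 was higher. Besides STMN3 and INA, CRMP1, a collapsin response mediator that links semaphorin signals to microtubules, read 7.14, 6.98 and 7.08 in the double knockdown and 7.51, 7.51 and 7.65 in the control (log2 change -0.49, limma adjusted p = 0.00253). KIF5C, a kinesin of axonal transport, fell by 0.42. Of the relatives of CRMP1, DPYSL4 fell by 0.23 and DPYSL3 rose by 0.22. Of 29 synaptic vesicle and presynaptic genes 3 were called, all lower (SYP, CPLX1 and RAB3A, the last by 0.39 on the log2 scale). SCG3 was the only call among 20 genes of secretory granules. The count for the cytoskeleton list was 3 without shUBE4B+shLSD1 replicate 2. Of 57 axon guidance genes 4 were higher and 0 lower (7.02% higher), 53 did not pass, and 19 had a negative change, with a median log2 change of 0.07. Without the 40% dimmest genes 3 members were called lower, and the methods' t-test called 0 higher. ROBO1, a receptor for SLIT ligands that is also on the p53 target list of the study, read 10.73, 10.82 and 10.69 in the double knockdown and 9.94, 10.08 and 9.98 in the control (log2 change 0.75, limma adjusted p = 2.93e-05). SLIT2, a ligand of that receptor, rose by 0.28 and the ephrin receptor EPHA7 by 0.36, and UNC5C completes the 4. Without shCTRL replicate 3 limma called 7 genes of this list higher.

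Vesicle coats and sphingolipid genes held called members in both directions. Of 50 measured genes of the COPI, COPII and clathrin coats 5 rose (10% higher) and 2 fell. Beside SEC23A, the adaptor subunits AP3B1, AP2B1 and AP2A1 rose by 0.63, 0.61 and 0.27 on the log2 scale. AP2B1, the beta subunit of the endocytic adaptor AP-2, read 11.20, 11.21 and 11.32 in the double knockdown and 10.55, 10.64 and 10.72 in the control (limma adjusted p = 0.000457). SEC31A, the outer partner of SEC23A in COPII, rose by 0.24, while the cargo receptor TMED10 fell by 0.23 and AP3M1 by 0.21. The AP-3 adaptor therefore had 1 subunit higher and 1 lower. The 33 sphingolipid genes had 5 higher and 5 lower (15.2% each way). The serine palmitoyltransferase that starts the pathway was split, since its subunit SPTLC1 read 9.47, 9.61 and 9.55 in the double knockdown and 10.13, 9.96 and 10.05 in the control (log2 change -0.50, limma adjusted p = 0.000737), while SPTLC2 rose by 0.45. SGPP1, which removes phosphate from sphingosine 1-phosphate, rose by 0.51 and the kinase SPHK1, which adds it, fell by 0.27. SGMS1 and ORMDL2 were the other higher genes, and B4GALT6, B4GALT5 and ACER3 the other lower ones. The count of higher genes was 3 without shUBE4B+shLSD1 replicate 2 or shCTRL replicate 1. That of lower genes was 2 without shUBE4B+shLSD1 replicate 1 or shCTRL replicate 1 or 3, and 3 without shUBE4B+shLSD1 replicate 2 or 3.

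Rab GTPases, which mark the membranes of each transport route, had 5 members higher and 5 lower of 53 measured (9.43% each way). RAB31 of the Golgi to endosome route had log2 signals of 10.46, 10.56 and 10.59 in the double knockdown and 9.98, 10.01 and 10.22 in the control (log2 change 0.47, limma adjusted p = 0.00125). RAB6A of the Golgi read 9.50, 9.49 and 9.58 in the double knockdown and 10.08, 10.12 and 10.09 in the control, a fall of 0.57 on the log2 scale (limma adjusted p = 4.51e-05). RAB14, RAB23, RAB1A and RAB15 completed the higher genes. The secretory Rabs RAB3A and RAB3C fell by 0.39 and 0.67, and RAB8B and RAB5B fell as well. The lower count was 12 without shCTRL replicate 2 and 3 without shUBE4B+shLSD1 replicate 1 or 3. The higher count was 3 without shUBE4B+shLSD1 replicate 1 or 2, shUBE4B replicate 2 or shCTRL replicate 1, and 2 without shUBE4B+shLSD1 replicate 3. RAB23 lost its call without shUBE4B+shLSD1 replicate 1 or 3 or shCTRL replicate 1 or 2 (limma adjusted p up to 0.0945).

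Metal transporters and calcium-binding proteins held a few larger changes. Of 50 metal transport genes 4 rose (8%) and 1 fell. The zinc exporter SLC30A1 at the plasma membrane read 7.84, 7.58 and 7.45 in the double knockdown and 7.10, 6.82 and 7.13 in the control (log2 change 0.60, limma adjusted p = 0.00541). SLC30A6, a zinc transporter of the Golgi, read 9.68, 9.75 and 9.77 in the double knockdown and 10.49, 10.14 and 10.52 in the control (log2 change -0.65, limma adjusted p = 0.000695). The zinc transporters thus differed in direction by gene. COMMD1, which takes part in the sorting of ATP7A and in copper balance, rose by 0.34, and SLC30A4 rose by 0.28. Among 26 annexins and S100 proteins 4 rose (15.4%) and 2 fell. ANXA7, an annexin of membrane fusion, read 9.34, 9.26 and 9.39 in the double knockdown and 8.66, 8.45 and 8.65 in the control (log2 change 0.74, limma adjusted p = 0.000128), and S100A10, the partner of annexin A2 at the cell surface, rose by 0.52.

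Of the signalling pathways, TGF-beta and BMP had called members in 1 direction only. Ligands of this family bind paired receptor kinases and are held back by secreted antagonists. Of 52 measured genes 5 rose (9.62%) and 0 fell, with a median log2 change of 0.05. They were the coreceptor TGFBR3, the activin receptor ACVR2A (0.31), the ligand BMP2 and the secreted antagonists FST and FSTL1. FST, or follistatin, which binds activin, read 6.76, 6.71 and 6.68 in the double knockdown and 6.42, 6.28 and 6.33 in the control (log2 change 0.38, limma adjusted p = 0.00828). BMP2 read 7.61, 7.57 and 7.87 in the double knockdown and 7.23, 7.38 and 7.29 in the control (log2 change 0.39, limma adjusted p = 0.0109). Control levels of both genes were below that of the median gene, and their groups did not overlap. FSTL1 rose by 0.43 on the log2 scale and is on the p53 target list of the study. No SMAD of the list was called.

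NOTCH signalling had 5 genes higher (13.5%) and 1 lower of 37 measured, with a median log2 change of -0.03. NOTCH receptors are cut by gamma-secretase after ligand binding, and the released domain joins the DNA-binding protein RBPJ to turn on HEY and HES genes. RBPJ read 9.96, 10.10 and 10.04 in the double knockdown and 9.52, 9.65 and 9.69 in the control (log2 change 0.41, limma adjusted p = 0.00361), and its second transcript cluster had a log2 change of 0.17 that did not pass. HEY1, a target, read 10.10, 10.17 and 10.18 in the double knockdown and 9.70, 9.77 and 9.78 in the control (log2 change 0.40, limma adjusted p = 0.00171). The gamma-secretase subunits PSEN2 and NCSTN rose by 0.39 each and the receptor NOTCH2 by 0.36, whereas the ligand JAG1 fell by 0.27. Among the called members the higher ones were a receptor, protease subunits, the DNA-binding protein and a target, and the lower one was a ligand. The other 31 members did not pass, and 24 of the 37 had a negative change. The counts of higher genes in the TGF-beta and NOTCH lists stayed within 1.5 times of these when any 1 array was left out.

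Protein kinase A is a tetramer of regulatory and catalytic subunits that cAMP releases, and AKAPs hold it in place. Of 39 genes of anchors and cAMP signalling 6 rose (15.4%) and 2 fell. AKAP11 read 8.70, 8.58 and 8.59 in the double knockdown and 7.90, 7.80 and 8.13 in the control (log2 change 0.68, limma adjusted p = 0.00145), and AKAP13 rose by 0.24. The catalytic subunit PRKACB rose by 0.39 on the log2 scale. The regulatory subunit PRKAR2A, which is on the p53 target list of the study, read 10.16, 10.27 and 10.07 in the double knockdown and 10.83, 10.56 and 10.74 in the control (log2 change -0.54, limma adjusted p = 0.00123). The other 4 measured subunits in the list, PRKACA, PRKAR1A, PRKAR1B and PRKAR2B, did not pass. The cyclase ADCY6 rose by 0.28 and the phosphodiesterase PDE8A by 0.29, while the phosphodiesterase PDE4A fell by 0.25.

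The Hippo pathway restrains the coactivator YAP, which binds TEAD factors, through the LATS kinases and their partners. Of 29 genes 5 fell (17.2%) and 2 rose. MOB1B, an activator of LATS kinases, read 8.01, 8.21 and 8.12 in the double knockdown and 8.85, 8.73 and 8.89 in the control (log2 change -0.71, limma adjusted p = 0.000495). TEAD1 read 9.31, 9.47 and 9.37 in the double knockdown and 9.77, 9.78 and 9.79 in the control (log2 change -0.40, limma adjusted p = 0.00145). The control arrays of TEAD1 were nearly equal and lay above all knockdown arrays. AJUBA, a LIM protein that inhibits LATS, fell by 0.47, VGLL4, which competes with YAP for TEAD, by 0.28, and AMOTL2 by 0.26. AMOT, which tethers YAP at junctions, rose by 0.59 and the phosphatase PTPN14 by 0.36. YAP1 itself had a log2 change of -0.18 (limma adjusted p = 0.222). The lower count was 3 without shCTRL replicate 1 and without any 1 of the double knockdown arrays.

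WNT signalling moved little, with 1 of 55 genes higher (FZD5, 0.27) and 1 lower (GSK3B, -0.28). The lower count was 3 without shCTRL replicate 1, and FZD5 lost its call without shUBE4B+shLSD1 replicate 2 (limma adjusted p = 0.0509). Among 62 receptor tyrosine kinase ligands, receptors and feedback genes 2 rose and 3 fell. SPRY2, a feedback inhibitor of FGF signalling, read 7.52, 7.45 and 7.41 in the double knockdown and 7.90, 7.84 and 7.91 in the control (log2 change -0.42, limma adjusted p = 0.000562), and the receptors FGFR1 and FGFR3 rose by 0.31 and 0.32. The call of FGFR3 ended without shUBE4B+shLSD1 replicate 1 (limma adjusted p = 0.0581). FGF11 fell by 0.46 and DUSP6, a phosphatase that switches off ERK, by 0.29, a call that ended without any of 8 arrays (limma adjusted p up to 0.124).

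In the ubiquitin system, partners of UBE4B on the p97 route had 3 members higher and 4 lower of 31 measured. UBE4B was 1 of the 4 lower genes and its closest relative UBE4A (-0.27) another. PLAA, a ubiquitin-binding cofactor of p97, read 10.06, 9.94 and 9.99 in the double knockdown and 10.47, 10.17 and 10.47 in the control (log2 change -0.37, limma adjusted p = 0.0123). RAD23B, a shuttle that receives chains made by UBE4B relatives in yeast, fell by 0.27. The shuttle UBQLN4 rose by 0.34, with 0.52 in its second transcript cluster, the p97-linked deubiquitinase YOD1 rose by 0.27, and MDM2, a p53 target, by 0.39. The calls of PLAA ended without shUBE4B+shLSD1 replicate 2 or shCTRL replicate 1 (limma adjusted p up to 0.0523), and those of MDM2 without shUBE4B+shLSD1 replicate 1 or 3 (up to 0.056). The lower count was 1 without shCTRL replicate 1 and 2 without shCTRL replicate 3 or any 1 double knockdown array, and the higher count was 1 without shUBE4B+shLSD1 replicate 1 or 3. Of 26 measured E2 enzymes 5 were higher (19.2%) and 0 lower. UBE2N, which builds lysine 63 chains, read 10.01, 10.08 and 10.08 in the double knockdown and 9.65, 9.70 and 9.71 in the control (log2 change 0.37, limma adjusted p = 0.00145), and UBE2H read 9.30, 9.18 and 9.28 in the double knockdown and 8.85, 8.77 and 8.97 in the control (log2 change 0.39). AKTIP, UBE2Z and UBE2Q1 were the others. The median of the E2 list was -0.01, and 3 were called without any 1 double knockdown array. The proteasome had 2 of 46 genes higher and 2 lower, 4.35% each way and near the 3.74% and 3.83% of all genes. The alternative cap PSME4 (0.36) and the lid subunit PSMD11 (0.33) were higher, and PSMB2 and PSMD9 were lower. The median log2 change of this list was -0.07, and 33 of the 46 had a negative change. Lower proteasome genes numbered 6 without shCTRL replicate 2, 1 without shUBE4B+shLSD1 replicate 1 or 2 and 0 without shCTRL replicate 1.

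Of 52 measured enzymes of histone lysine methylation, the class of LSD1, 2 were higher (3.85%, near the 3.74% of all genes) and 0 lower. SETD7, a monomethyltransferase of histone H3 lysine 4, read 10.75, 10.67 and 10.85 in the double knockdown and 10.21, 10.28 and 10.40 in the control (log2 change 0.46, limma adjusted p = 0.00364). KDM5B, a demethylase of the higher methyl states of the same lysine, read 9.95, 10.03 and 10.10 in the double knockdown and 9.65, 9.66 and 9.80 in the control (log2 change 0.32, limma adjusted p = 0.0102). None of the other 50 passed, KDM1A being counted with its complexes. LIN28B, which blocks the maturation of let-7 microRNAs, was the only called gene among 19 of the RNA interference machinery, with log2 signals of 9.70, 9.66 and 9.87 in the double knockdown and 9.12, 8.87 and 9.34 in the control (log2 change 0.63, limma adjusted p = 0.00268).

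Genes that ATF4 turns on under amino acid or endoplasmic reticulum stress had 6 of 31 members lower (19.4%) and 0 higher. STC2, a secreted glycoprotein, read 8.63, 8.52 and 8.72 in the double knockdown and 8.96, 9.13 and 9.12 in the control (log2 change -0.45, limma adjusted p = 0.00277). ASNS, which makes asparagine, fell by 0.38, the tRNA synthetases NARS1 and WARS1 by 0.34 and 0.30, the partner factor CEBPG by 0.29 and SESN2 by 0.26. ATF4 itself had a log2 change of -0.02, and 3 of the 6 lower genes are on the p53 target list of the study. The count was 3 without shUBE4B+shLSD1 replicate 1 or shCTRL replicate 1 and 1 without shUBE4B+shLSD1 replicate 2. ASNS lost its call without shUBE4B+shLSD1 replicate 1 or 2 or shCTRL replicate 1 or 3 (limma adjusted p up to 0.11), and NARS1 and WARS1 without shUBE4B+shLSD1 replicate 2 (0.0654 and 0.0555). In the serine and one-carbon list PSAT1, which makes the serine precursor, read 10.39, 10.46 and 10.46 in the double knockdown and 10.97, 10.96 and 11.09 in the control (log2 change -0.57, limma adjusted p = 0.000114). SHMT2, the mitochondrial enzyme that splits serine, went the other way, with 11.46, 11.59 and 11.63 in the double knockdown and 10.94, 10.95 and 11.26 in the control (log2 change 0.51, limma adjusted p = 0.00287). Antioxidant genes had 4 of 43 lower and 1 higher. TALDO1, an enzyme of the pentose phosphate pathway, read 10.52, 10.54 and 10.44 in the double knockdown and 11.23, 11.23 and 11.26 in the control (log2 change -0.74, limma adjusted p = 1.82e-05), and the mitochondrial peroxidase PRDX3 fell by 0.48. The lower count was 2 without shUBE4B+shLSD1 replicate 2 or shCTRL replicate 3.

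Of the housekeeping lists, mitosis, cytosolic ribosomal proteins and oxidative phosphorylation had 0%, 1.72% and 5.8% of members called, below the 7.56% of all genes, and DNA replication had 15.8%. None of 55 mitosis genes was called, with a median log2 change of -0.05, although 11 were called lower without shCTRL replicate 2 and 1 without shCTRL replicate 3. Of 57 DNA replication genes 3 rose and 6 fell, and 4 of the 9 are on the p53 target list of the study. ORC3, of the origin recognition complex, read 9.92, 10.05 and 9.97 in the double knockdown and 9.34, 9.05 and 9.45 in the control (log2 change 0.70, limma adjusted p = 0.000436). E2F factors were split, since the repressor E2F7 rose by 0.48 while E2F2, an activator, fell by 0.45 and E2F8, a repressor, by 0.39. Lower replication genes numbered 11 without shCTRL replicate 2 and higher ones 5 without shCTRL replicate 1. Of 58 cytosolic ribosomal proteins 1 was called (RPS29, -0.33), and its call ended without shUBE4B+shLSD1 replicate 3 (limma adjusted p = 0.0515). Of 69 genes of oxidative phosphorylation 3 fell and 1 rose. ATP5MC1, of the membrane ring of the ATP synthase, read 11.51, 11.40 and 11.46 in the double knockdown and 11.86, 11.97 and 11.88 in the control (log2 change -0.45, limma adjusted p = 0.000923), and NDUFA9 of complex I fell by 0.40. The lower count was 6 without shCTRL replicate 2. Of 48 interferon and RNA sensing genes 2 rose and 1 fell.

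**Figure D4:**
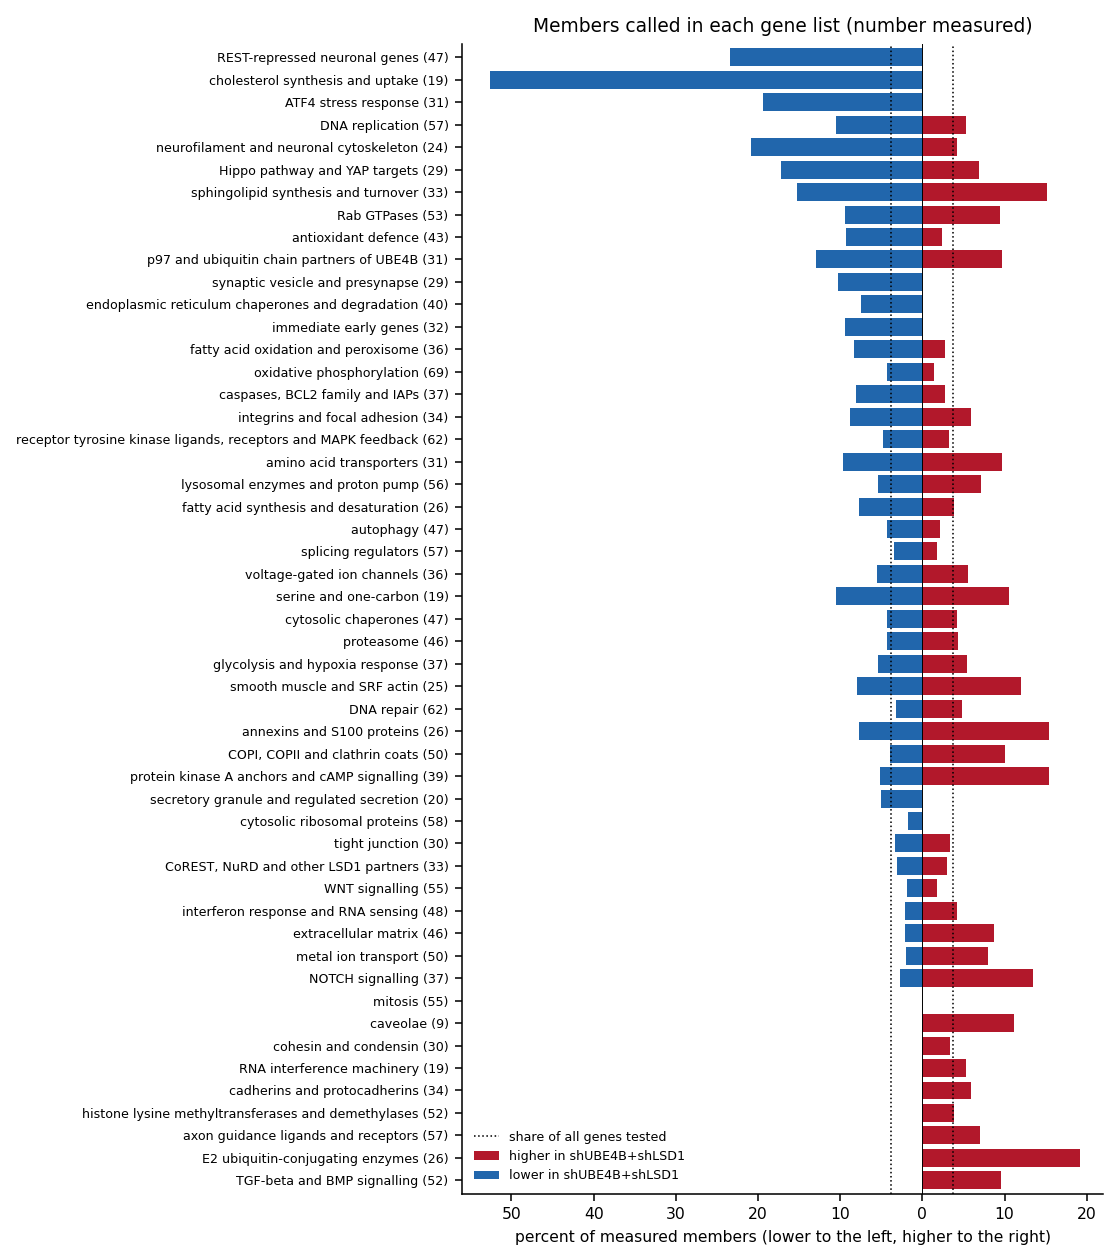
Percent of the measured members of each of 51 gene lists (number measured in brackets) that limma called lower (blue, to the left) or higher (red, to the right) in shUBE4B+shLSD1 than in shCTRL. Dotted lines mark the shares of all genes, 3.83% lower and 3.74% higher. Cholesterol synthesis reaches 52.6% lower, REST-repressed neuronal genes 23.4% lower and E2 enzymes 19.2% higher, and mitosis has no bar.

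The design also allows the double knockdown to be set against each single knockdown, which shows where the second shRNA set moved a gene further. Against the UBE4B knockdown limma called 27 genes, 0.147% of those tested, and against the LSD1 knockdown 513 genes, 2.79% of those tested. Single arrays changed these counts. With the UBE4B knockdown as reference the count was 12, 16 and 13 without shUBE4B+shLSD1 replicate 1, 2 and 3, 8, 11 and 10 without shUBE4B replicate 1, 2 and 3, and 135 without shCTRL replicate 2. With the LSD1 knockdown as reference it was 186, 233 and 265 without shUBE4B+shLSD1 replicate 1, 2 and 3, 197, 159 and 160 without shLSD1 replicate 1, 2 and 3, and 808 without shCTRL replicate 2. The changes below from the control use the same 3 control arrays for every knockdown and are given side by side without a further test. Named genes include the 5 highest and 5 lowest called against each single knockdown, so gaps from a single knockdown are part of the choice.

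ITM2C, ARL2BP and TESK2 were higher than the control with both shRNA sets and did not pass the test with either set alone, which does not show that they stayed at the control level. ITM2C, an inhibitor of amyloid precursor cleavage, had log2 signals of 10.75, 10.76 and 10.83 on the double knockdown arrays, 9.98, 10.12 and 10.14 with the UBE4B shRNAs, 10.08, 10.20 and 10.11 with the LSD1 shRNAs and 9.82, 10.09 and 10.15 in the control. The double knockdown arrays lay above all 9 others, a gap that the way of naming genes favoured. ARL2BP, a partner of the small GTPase ARL2, had log2 changes from the control of 0.73 with both shRNA sets, 0.12 with UBE4B shRNAs and 0.25 with LSD1 shRNAs, and a second cluster of this gene read 0.25 in the double knockdown. TESK2, a kinase of cofilin, had changes of 0.70, 0.06 and 0.29 in the same order. ATP23 stood at 0.97 with both sets, 0.34 with UBE4B shRNAs (limma adjusted p = 0.021) and 0.13 with LSD1 shRNAs, which did not pass. The double knockdown exceeded both single knockdowns in limma, by 0.63 (adjusted p = 0.00724) and 0.84 (adjusted p = 0.000348). CERS2, MAGT1 and HIPK1 had smaller rises with each set alone. CERS2 changed by 0.93 with both sets, 0.43 with UBE4B shRNAs and 0.37 with LSD1 shRNAs, and MAGT1 by 0.93, 0.36 and 0.44 in that order. HIPK1 changed by 0.82 with both sets, 0.38 with UBE4B shRNAs and 0.22 with LSD1 shRNAs, of which the last did not pass.

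In other genes the double knockdown lay nearer to 1 of the single knockdowns. RAB3C changed by -0.67 with both sets, -0.56 with UBE4B shRNAs and 0.21 with LSD1 shRNAs. SCG3 had mean log2 signals of 4.63 with both sets, 4.47 with UBE4B shRNAs, 5.54 with LSD1 shRNAs and 5.85 in the control, and at such dim levels the sizes of its changes were not compared. LMF1, which matures lipases in the endoplasmic reticulum, changed by 0.64 with both sets, 0.55 with UBE4B shRNAs and -0.09 with LSD1 shRNAs. COMMD2 changed by -0.86, -0.66 and -0.02 in that order. For AMOT the nearer group was the LSD1 knockdown, with 0.59 for both sets, 0.12 for UBE4B shRNAs and 0.55 for LSD1 shRNAs. CGA, a glycoprotein hormone subunit, was high in the LSD1 knockdown alone and stood at a log2 change of 0.32 in the double knockdown (limma adjusted p = 0.216). Its double knockdown signals of 6.20, 5.96 and 6.32 overlapped with the control signals of 5.97, 5.55 and 5.98.

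**Figure D5:**
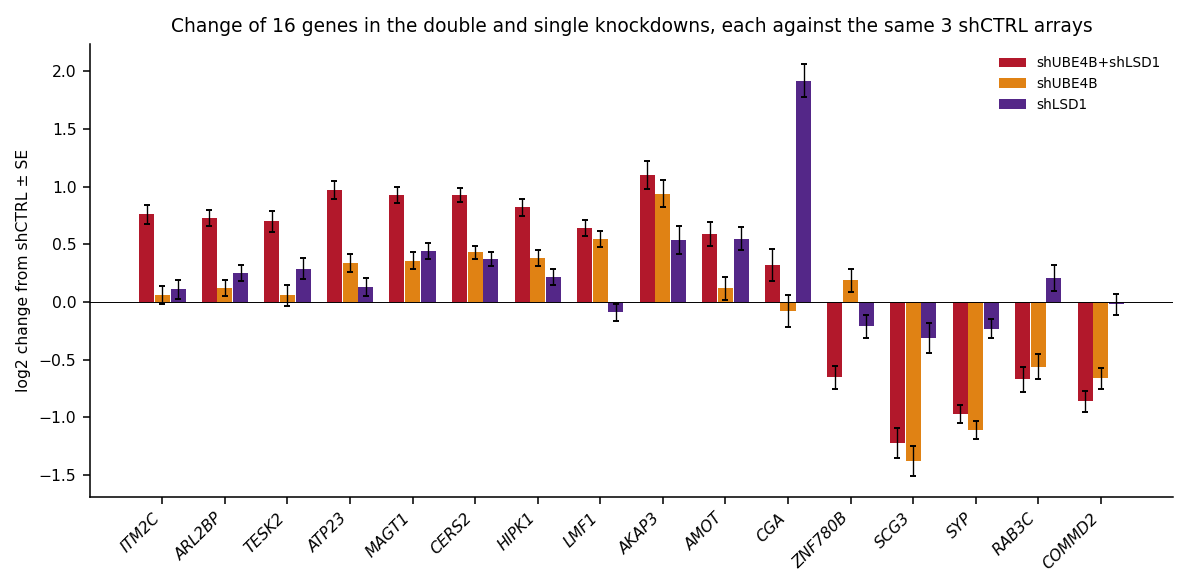
Log2 change from the same 3 shCTRL arrays, with its standard error from limma, of 16 genes in the shUBE4B+shLSD1, shUBE4B and shLSD1 groups (bars from left to right for each gene). ITM2C, ARL2BP and TESK2 have 1 tall bar, the double knockdown at 0.76, 0.73 and 0.70. SCG3, SYP, RAB3C and COMMD2 have 2 long bars below 0 and a shorter or opposite bar for shLSD1.

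ZNF780B, a zinc finger protein of unknown targets, was the gene furthest below the UBE4B knockdown after KDM1A, with log2 signals of 6.49, 6.42 and 6.66 in the double knockdown and 7.34, 6.97 and 7.20 in the control. Its change from the control was -0.65 with both sets, 0.19 with UBE4B shRNAs and -0.21 with LSD1 shRNAs. ZNF252P and ZNF271P, a pair of transcribed zinc finger pseudogenes, were also below the UBE4B knockdown, by 0.57 and 0.56. Unlike ZNF780B, neither passed the test against the control, where the log2 change of ZNF252P was -0.05. After these values were seen, all 480 measured genes named ZNF and a number were counted. In the double knockdown 27 were lower (5.62%) and 4 higher (0.833%), where 3.83% of all genes were lower and 3.74% higher. Their median log2 change there was -0.05, against -0.01 over all genes. In the UBE4B knockdown 10 were lower and 30 higher with a median of 0.03, where 4.47% of all genes were lower and 5.59% higher. In the LSD1 knockdown 4 were lower and 1 was higher with a median of -0.05, where 0.315% of all genes were lower and 0.505% higher. ZNF28 read 7.83, 7.79 and 7.65 in the double knockdown and 8.55, 8.25 and 8.26 in the control (log2 change -0.60, limma adjusted p = 0.00245), and ZNF91 fell by 0.58. ZNF704 was the most raised of the 4 (log2 change 0.52). The lower count in the double knockdown was 44 without shCTRL replicate 2, 10 without shCTRL replicate 1, 15 without shCTRL replicate 3, and 16, 13 and 14 without shUBE4B+shLSD1 replicate 1, 2 and 3. With the 2 groups fitted alone it was 8, and in the methods' t-test 0. Zinc finger genes of this family resemble each other in sequence, so probes of 1 gene can read another, which was not tested.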

How the data were processed

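RNA of HEK293T cells was measured on 12 arrays in 4 groups of 3. The deposited values are log2 signals per transcript cluster, which the authors made with RMA in Partek (background correction, quantile normalization, probe summary) on genome build hg19. No versions of these are given in the sources used here. Quantile normalization removes any change in total RNA per cell. All 12 columns of the table were assigned to samples by their labels.

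Of 33297 transcript clusters, 19460 had 1 gene symbol, 1754 had several and 12083 had none in the annotation used. Symbols were updated with a gene table of GRCh38.p14, except 31 that could not be matched. The brightest cluster stood for each of 18417 genes, of which 769 had more than 1. Clusters with several symbols or none entered no test by gene, since they cannot be given to 1 gene.

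Group means of all 12 arrays were fitted with limma 3.58.1 in R 4.3.3 (eBayes after lmFit, 8 residual and 5.13 prior degrees of freedom). A gene was called where its p, adjusted by Benjamini-Hochberg across all 18417, was under 0.05. Comparisons were the double knockdown against the control and against each single knockdown, and the knockdowns share the 3 control arrays. The procedure was tested on simulated data. The 51 gene lists, the markers and the p53 names left out (135 names, 123 measured) were chosen with earlier results of these data known. Named genes were both targets, the 15 highest and 15 lowest changes with non-overlapping arrays outside the p53 names, up to 4 called members per list and the 5 highest and lowest against each single knockdown, 190 in all. Further members of a list, motif TCACCCC and the ZNF genes were named after their values were seen. Genes without a cluster of 1 symbol were not analysed here. The number of arrays limits the precision.

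Alternatives were each array left out, trend and robust eBayes, the 2 groups alone, replicate number as a block, median centring, another quantile normalization, array weights, the mean over the clusters of each gene, a test without the 40% dimmest genes, every cluster, the methods' t-test, and the methods' 1.2-fold threshold. Promoter windows came from RefSeq (GRCh38.p14). Python 3.11.15, NumPy 2.4.6, pandas 2.3.3 and matplotlib 3.10.9 were used for tables and plots.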

Additional observations from a re-analysis of the deposited data

Results flagged for a closer look

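Transcript clusters outside the test by gene held called signals as well. In a limma fit over every cluster of the table, 94 of the 12083 clusters with no gene symbol were higher and 61 were lower in the double knockdown than in the control, 1.28% of them. Of the 1754 clusters with several symbols 16 were higher and 25 lower, or 2.34%. In the same fit the 19460 clusters with 1 symbol had 499 higher and 499 lower, or 5.13%. These clusters could not be given to a gene and were not followed further. Groups of 3 arrays are too small for a test of single outlying arrays, and none was made.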

How the results depend on the processing

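The count of called genes depended on how the spread was estimated. Fitted to the 6 arrays of both groups alone, limma called 420 genes (219 higher and 201 lower), and the methods' t-test after Benjamini-Hochberg called 48 (25 higher and 23 lower). UBE4B and KDM1A kept changes of -1.42 and -1.12 in that t-test, with adjusted p of 0.0578 and 0.0659, which missed the threshold. Without 1 array the counts were 862 to 1549 for all called genes, 417 to 759 for higher and 413 to 923 for lower ones, and the changes were -1.51 to -1.33 for UBE4B and -1.18 to -1.02 for KDM1A. The split was 626 higher and 923 lower without shCTRL replicate 2, the array with the lowest weight in limma (0.277), and 759 higher and 509 lower without shCTRL replicate 3. Against the UBE4B knockdown the count was 86 with trend and robust eBayes, 125 with array weights, 88 without the 40% dimmest genes, 1 in the methods' t-test and 8 to 135 without 1 array. Against the LSD1 knockdown it was 781, 896, 801, 9 and 159 to 808 in the same order. The methods' threshold of 1.2-fold and an unadjusted p under 0.05 passed 1695 genes with limma and 1211 with the t-test. The remaining alternatives by gene gave 1200 to 1942 called genes, and the fit over every cluster called 1194 clusters. The deviations of same-numbered double knockdown and control arrays had correlations of 0.045, -0.0447 and 0.328, so the numbers were not taken to pair the samples. Over all 4 groups 10 of 18 same-numbered pairs correlated above 0.1, all of them numbered 1 or 3, against 2 of 36 pairs of different numbers, and shUBE4B+shLSD1 replicate 1 correlated best with shCTRL replicate 2 (0.248). With replicate number as a block limma called 1821 genes (899 higher and 922 lower), 33 against the UBE4B knockdown and 686 against the LSD1 knockdown. Of 188 other named genes the block ended the call of 4, the further quantile normalization of 7, median centring of 6, array weights of 27, the fit of both groups alone of 84 and the t-test of 172, and 12 of 185 called genes kept their call under every alternative. Leaving out 1 array ended the call of 67 of the 185. ZNF252P, which did not pass (-0.05), changed sign, to 0.03 without shCTRL replicate 1 and 0.00 without shUBE4B+shLSD1 replicate 3, in a range of -0.10 to 0.03. The causes of these shifts were not tested. Only 0.76% of the dimmest of 5 equal groups of genes were called, and whether dim genes changed less or were measured less well was not tested.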

Other observations

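Genes of the cell surface and its matrix, not described above, held a few called members. Of 46 extracellular matrix genes 4 rose (8.7%) and 1 fell. LAMA4, a laminin chain of vessel basement membranes, read 7.79, 7.97 and 8.01 in the double knockdown and 7.11, 7.31 and 7.46 in the control (log2 change 0.63, limma adjusted p = 0.0109). COL6A1 rose by 0.50 and COL4A2 by 0.39 on the log2 scale. PCDH10, a delta protocadherin, read 8.87, 9.08 and 9.34 in the double knockdown and 8.31, 8.34 and 8.55 in the control (log2 change 0.70, limma adjusted p = 0.00684), 1 of 2 members called among 34 cadherins and protocadherins. The sodium channel SCN9A rose by 0.66, with log2 signals of 6.11, 6.51 and 6.49 in the double knockdown and 5.51, 5.84 and 5.78 in the control. All SCN9A control arrays lay below the 25th percentile of control levels (6.14), so the size of its change is uncertain. In each of these genes the groups did not overlap.

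Transporters and organelle genes moved in both directions. SLC7A5, the light chain of the large neutral amino acid transporter, read 11.98, 11.86 and 11.88 in the double knockdown and 11.21, 11.30 and 11.18 in the control (log2 change 0.68, limma adjusted p = 5.28e-05), and changed by 0.16 with UBE4B shRNAs alone and 0.22 with LSD1 shRNAs alone from the same control arrays. SLC16A10, a carrier of aromatic amino acids, rose by 0.52. PEX26, a peroxisomal anchor for import, read 8.98, 9.09 and 8.90 in the double knockdown and 9.69, 9.66 and 9.48 in the control (log2 change -0.62, limma adjusted p = 0.000495). GUSB and ARSA, lysosomal hydrolases, rose by 0.38 and 0.33. CALU, a calcium-binding protein of the secretory route on the p53 target list of the study, fell by 0.85 and changed by -0.74 with UBE4B shRNAs alone and 0.11 with LSD1 shRNAs alone. MBNL3 rose by 0.41 and MBNL1, a splicing factor of the same family, fell by 0.28, a call that ended without shUBE4B+shLSD1 replicate 1 or 3 or shCTRL replicate 1 (limma adjusted p up to 0.0722).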
